A study of Mus musculus with 13 samples.

Results

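The genes described here are the aminoacyl-tRNA synthetases, 35 listed genes of which 19 encode cytosolic enzymes and 16 encode mitochondrial enzymes. They were taken by symbol from a list, not by their values, and all 35 were found among the 16382 genes in the tables. In the list the mitochondrial enzymes are those whose symbols end in 2, and Gars1 and Kars1, counted as cytosolic, serve both compartments. RNA-seq was carried out on C2C12 myotubes, the multinucleated cells that a mouse myoblast line forms by fusion. From day 8 of differentiation the myotubes were exposed for 24 h to 10 μM palmitoylethanolamide (PEA), a fatty acid amide, dissolved in DMSO, or to the DMSO vehicle alone (CON), with 6 libraries in each group. C2C12 is 1 immortalised line. The experiment was repeated with duplicate wells each time, and no label ties a library to its repeat, so the p-values measure the spread between these libraries, part of which may be technical.

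An aminoacyl-tRNA synthetase joins an amino acid to its tRNA, the step that makes the amino acid available to the ribosome. Cytosolic and mitochondrial translation use separate sets of synthetases, all encoded in the nucleus, and several cytosolic enzymes are held together with scaffold proteins in the multi-synthetase complex. When charged tRNA runs short, uncharged tRNA activates the kinase GCN2, and the transcription factor ATF4 then raises genes for amino acid synthesis and import and many cytosolic synthetases. ATF4, paired with a C/EBP protein, binds an element whose core reads TGATGNAA.

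This core was searched, by its letters alone, in the 300 bases around the start of the canonical transcript of each gene, from 250 before it to 50 after it, on both strands of GRCm39. No other motif was searched. It was present in 5 of 19 cytosolic synthetases and in 0 of 16 mitochondrial synthetases. For comparison, it was present in 836 of 21757 protein-coding genes (3.84%), in 2.43% of the tested genes with such a window and in 6 of 27 other amino acid response genes (22.2%). The matches read TTGCATCA or TTTCATCA on the strand of the gene, so that the core itself lay on the other strand. A single run of 30 reference bases is shown for each of the 5 genes, whatever its number of matches, because these runs carry the letters that set these 5 promoters apart from the other 30 windows. They are given 5′ to 3′ on the strand of the gene, with the match in capitals, and positions count from the first transcribed base as 1. Aars1 had a second match, from base -146, which is not shown.
Aars1, chr8:111760472-111760501, + strand, match from base -25: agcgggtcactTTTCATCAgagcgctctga
Cars1, chr7:143153782-143153811, - strand, match from base 28: cggcgccgcggTTGCATCAgattctggaag
Iars1, chr13:49835596-49835625, + strand, match from base 38: gcctggcactgtcagtaTTGCATCAcctcc
Tars1, chr15:11399741-11399770, - strand, match from base -8: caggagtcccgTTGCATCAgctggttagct
Gars1, chr6:55014945-55014974, + strand, match from base 13: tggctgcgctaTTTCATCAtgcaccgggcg
Of these, Aars1, Cars1 and Iars1 were called higher in PEA and Tars1 and Gars1 were not. The other 5 synthetases called higher had no match in the window. A match of letters is not a bound site, and its absence from this window says nothing of the factor.

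The libraries held 12354845 to 50397444 estimated counts (median 18420606), with the first CON library 2.25 times as deep as the next. All 35 synthetases were among the 13142 genes tested with edgeR's quasi-likelihood test with Benjamini-Hochberg adjustment, in which 1452 genes (11.0%) were called at an adjusted p below 0.05. Of these, 829 (6.31%) were higher in PEA and 623 (4.74%) were lower. Over all tested genes the median of the log2 fold changes was 0.01. Levels are given below as normalized counts, the estimated counts divided by 1 factor per library.

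Cytosolic synthetases rose in PEA in part of the set. In all, 8 of 19 (42.1%) were called higher against 6.31% of all genes, and 0 were called lower. Their log2 fold changes had a median of 0.15 and ran from -0.06 to 0.32, with 15 above 0 and 4 below. In 3 of 19 every PEA library lay above every CON library, against 2.53% of all genes. These counts changed with the model and with single libraries. When each library's percentage of uniquely aligned pairs entered as a covariate, 0 of 19 were called, 5 had an unadjusted p below 0.05, all higher, against 8.18% of all genes higher in the same fit, and calls over all genes fell from 1452 to 230. With libraries summed in pairs to 3 per group, since the wells are not labelled, the median over 100 pairings was 6 called, ranging from 0 to 11. With single libraries left out, the number called higher ran from 3, without CON replicate 5 or PEA replicate 2, to 11, without CON replicate 2. It was 5 without CON replicate 3 or PEA replicate 6 and 4 without CON replicate 6, PEA replicate 4 or PEA replicate 5.

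**Figure D1:**
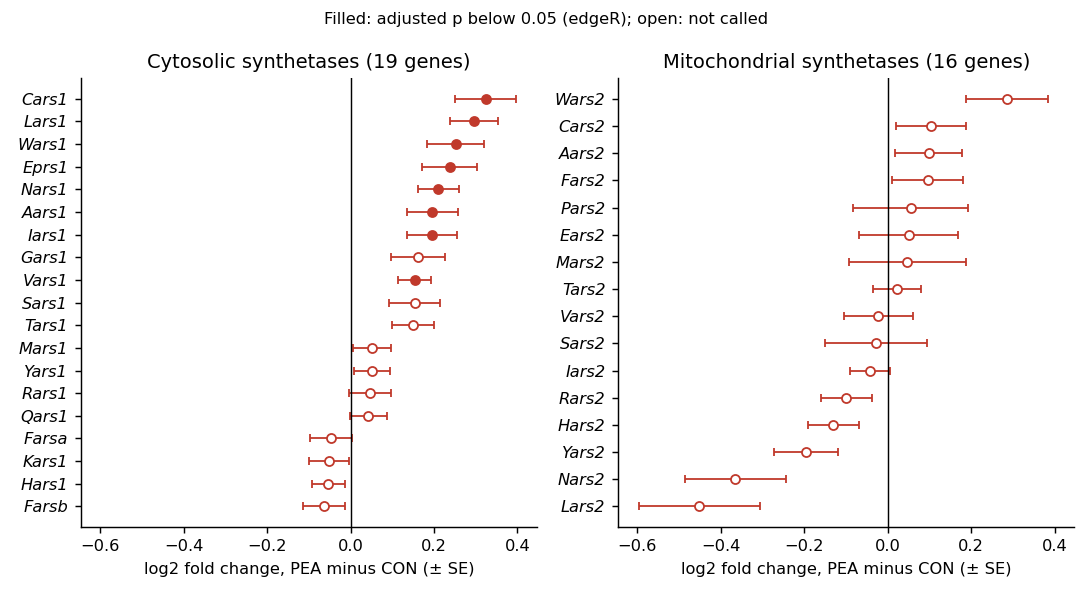
Log2 fold change of each synthetase, PEA minus CON (x axis), with bars of 1 SE, from edgeR over 6 libraries per group. Cytosolic genes are on the left and mitochondrial genes on the right, and filled points had an adjusted p below 0.05. The 8 filled points are all cytosolic and lie between 0.15 and 0.32.

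The largest cytosolic change belonged to Cars1 (chr7:143107440-143153828), which encodes cysteinyl-tRNA synthetase. Its CON libraries ran from 971 over a median of 1124 to 1456 normalized counts, and its PEA libraries from 1333 over 1461 to 1513. CON replicate 2 alone lay within the PEA range, and the other 5 CON libraries lay below every PEA library. The log2 fold change was 0.32 (SE 0.07, adjusted p = 0.0114).

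Lars1, on chromosome 18, encodes leucyl-tRNA synthetase, a member of the multi-synthetase complex. Normalized counts were 2589, 2791 and 3109 in the lowest, median and highest CON library and 3154, 3428 and 3803 in PEA. The groups did not overlap, with a log2 fold change of 0.30 (SE 0.06, adjusted p = 0.00471), the smallest adjusted p of the 35 genes.

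Wars1 (chr12:108825955-108860188) encodes tryptophanyl-tRNA synthetase, which interferon γ induces in many cell types. It spanned 2098 to 2617 normalized counts in CON (median 2266) and 2388 to 2995 in PEA (median 2759.6). CON replicates 1, 2 and 4 overlapped the PEA range, and the log2 fold change was 0.25 (SE 0.07, adjusted p = 0.0255).

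Eprs1 (chr1:185095101-185161840) encodes the bifunctional enzyme that charges both glutamate and proline tRNAs and sits in the complex. The CON libraries lay between 4287 and 5298 (median 4576) and the PEA libraries between 4989 and 6384 (median 5331). Only CON replicate 2 reached the PEA range, whose upper end was set by PEA replicates 4 and 5, and the log2 fold change was 0.24 (SE 0.07, adjusted p = 0.0295).

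Nars1, the asparaginyl-tRNA synthetase gene on chromosome 18, was with Gars1 among the most abundant per length of the cytosolic genes. The 6 CON libraries lay within 6285 to 6433 normalized counts (median 6398, SD 65.5), and the PEA libraries within 6502 to 7943 (median 7552.5). The groups did not overlap, although PEA replicate 3 lay close to the CON range, and the log2 fold change was 0.21 (SE 0.05, adjusted p = 0.0130).

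Aars1 (chr8:111754391-111784296), encoding alanyl-tRNA synthetase, had 4949.8, 5534 and 6532 normalized counts in the lowest, median and highest CON library and 5859, 6516 and 7037 in PEA. CON replicate 2 lay above 4 of the 6 PEA libraries, and the log2 fold change of 0.20 (SE 0.06) passed the threshold narrowly (adjusted p = 0.0499). Of the 50-base stretches of its canonical transcript, 22.3% are also in a transcript of Exosc6, a neighbour on the same strand that is not among the genes analysed here.

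Iars1 (chr13:49835576-49887745), encoding isoleucyl-tRNA synthetase of the complex, ran from 1994 over 2279 to 2518 in CON and from 2356 over 2644 to 2782 in PEA. CON replicates 1 and 2 lay within the PEA range, and the log2 fold change was 0.20 (SE 0.06, adjusted p = 0.0445). A pseudogene, Gm4849, shares 8.61% of its 50-base stretches.

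Vars1 (chr17:35219871-35235305), encoding valyl-tRNA synthetase, which associates with elongation factor 1, ran from 2925 over 3063 to 3089 in CON and from 3197 over 3388 to 3589 in PEA. This was the smallest called change, a log2 fold change of 0.15 (SE 0.04, adjusted p = 0.0227), and the groups did not overlap. D17H6S56E-5, on the opposite strand, shares 7.43% of its 50-base stretches, and the library kit did not mark strand.

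**Figure D2:**
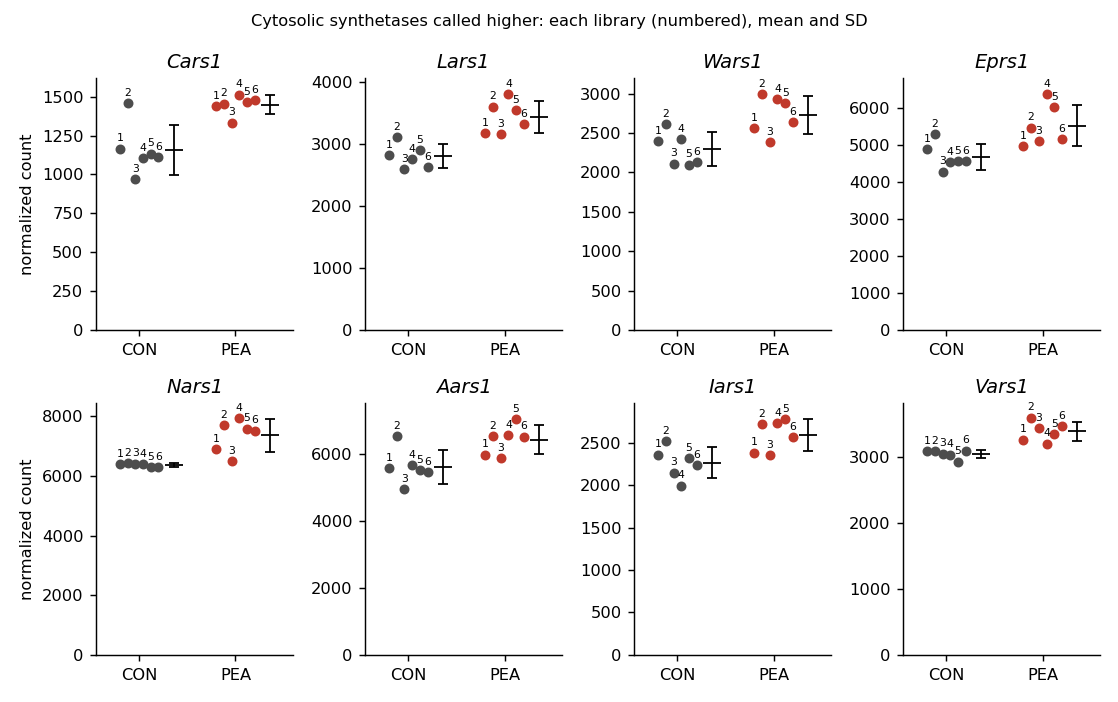
Normalized count (y axis, from 0) of the 8 cytosolic synthetases called higher, in each of 6 CON and 6 PEA libraries, numbered by replicate, with the mean and SD beside the points. Lars1, Nars1 and Vars1 show no overlap between the groups, and CON replicate 2 is the highest CON library in 7 of the 8 panels.

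Calls for Cars1, Lars1 and Nars1 held in all 12 fits with 1 library left out. Vars1 was called in 9 of the 12, Wars1 in 7, Eprs1 in 6, and Aars1 and Iars1 in 3 each. For Vars1 the call was lost without CON replicate 5, PEA replicate 2 or PEA replicate 6. For Wars1 it was lost without CON replicate 5 or 6 or PEA replicate 2, 4 or 5, and for Eprs1 without any of these or CON replicate 3. Aars1 and Iars1 kept the call only without CON replicate 2, PEA replicate 1 or PEA replicate 3. With the aligned percentage as a covariate the log2 fold changes of the 8 genes lay between 0.10 (Aars1) and 0.25 (Cars1), all above 0, with adjusted p from 0.108 for Lars1 to 0.514 for Aars1.

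The remaining 11 cytosolic genes were not called by edgeR. DESeq2 called 9 cytosolic genes higher, the ninth being Tars1, against 6.02% of all genes. With limma-voom 8 were called higher, against 7.39% of all genes. Gars1 (glycyl, 0.16), Sars1 (seryl, 0.15) and Tars1 (threonyl, 0.15, adjusted p = 0.0585) had log2 fold changes close to that of Vars1 with a larger SE. All 3 passed the threshold without CON replicate 2, in which Gars1 stood at 6557 and Sars1 at 6517 normalized counts, the highest CON values of each. Mars1 (methionyl, 0.05), Yars1 (tyrosyl, 0.05), Rars1 (arginyl, 0.05) and Qars1 (glutaminyl, 0.04) lay near 0. Both subunits of phenylalanyl-tRNA synthetase, Farsa (-0.05) and Farsb (-0.06), were slightly below 0, as were Hars1 (histidyl, -0.05) and Kars1 (lysyl, -0.05). Hars1 overlaps Hars2 on the opposite strand and shares 12.8% of its 50-base stretches with other genes. Mars1 overlaps the end of Ddit3 on the opposite strand, with 0.87% of its stretches shared.

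Grouped by structure, the calls were spread over both catalytic classes of synthetase and over genes inside and outside the complex. In the cytosolic set, 5 of 9 class I genes and 2 of 9 class II genes were called higher, against 6.31% of all genes, with medians of 0.15 in both classes. Eprs1, which holds a domain of each class, was counted in neither. All 9 class I log2 fold changes were above 0, against 5 of 9 in class II. Inside the multi-synthetase complex 3 of 7 genes were called higher (median 0.05), and outside it 5 of 12 (median 0.15). These differences between subgroups were not tested.

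Mitochondrial synthetases did not move together. With edgeR, 0 of 16 were called in either direction, against 6.31% higher and 4.74% lower over all genes. At an unadjusted p below 0.05, 1 was higher and 4 were lower, against 14.3% and 13.1% of all genes. DESeq2 and limma-voom each called 1 lower and 0 higher, and in both it was Nars2, while these tools called 5.66% and 5.0% of all genes lower. The median log2 fold change was 0.00, with 8 genes above 0 and 8 below, and no gene was free of overlap between the groups, against 2.53% of all genes above and 1.81% below. Whether the cytosolic and mitochondrial sets differ in their change was not tested.

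Of the mitochondrial genes, 4 are singled out because their values were seen to be the largest. Lars2 (chr9:123195952-123291731), the mitochondrial leucyl-tRNA synthetase gene, had 7468 to 14116 normalized counts in CON (median 8380.4) and 5187 to 8436 in PEA (median 7211). CON replicates 1, 2 and 4 exceeded every PEA library, PEA replicates 2, 3, 5 and 6 were below every CON library, and the other 5 libraries overlapped. Its log2 fold change was -0.45 (SE 0.14, adjusted p = 0.0543), and it was called lower without CON replicate 2, 3 or 5 or PEA replicate 4. Nars2, for asparagine, had 184 to 299 in CON (median 270.3) and 163 to 232 in PEA (median 194), with a log2 fold change of -0.37 (SE 0.12, adjusted p = 0.0601). Without CON replicate 3, its lowest CON library, it was called lower (adjusted p = 0.0155), and likewise without PEA replicate 3. Yars2, for tyrosine, spanned 464 to 561 in CON and 390.1 to 495 in PEA, and its log2 fold change was -0.20 (SE 0.08, adjusted p = 0.108). Its canonical transcript shares 52.8% of its 50-base stretches with other genes, almost all with Dnm1l on the opposite strand. In the other direction, Wars2, for tryptophan, lay at 123 to 160.0 in CON and 154 to 182 in PEA, with only CON replicate 1 inside the PEA range. The estimate was a log2 fold change of 0.28 (SE 0.10, adjusted p = 0.0696). Without CON replicate 1 it was called higher (adjusted p = 0.0451).

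**Figure D3:**
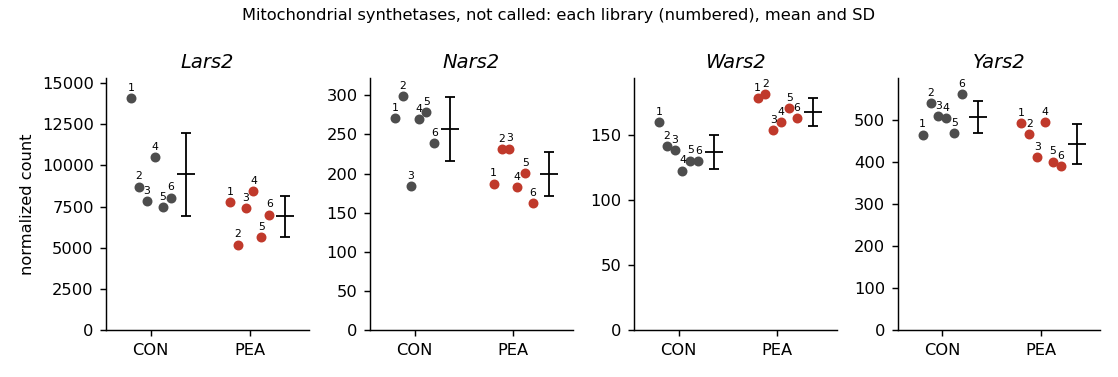
Normalized count (y axis, from 0) of the 4 mitochondrial synthetases with the largest absolute log2 fold change, in each CON and PEA library, numbered by replicate, with the mean and SD beside the points. EdgeR called none of them, DESeq2 and limma-voom called Nars2 lower, and the groups overlap in each panel.

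The other 12 mitochondrial genes had log2 fold changes from -0.13 to 0.10. Above 0 lay Cars2 (0.10), Aars2 (0.10), Fars2 (0.10), Pars2 (0.05), Ears2 (0.05), Mars2 (0.05) and Tars2 (0.02). Below 0 lay Vars2 (-0.02), Sars2 (-0.03), Iars2 (-0.04), Rars2 (-0.10) and Hars2 (-0.13). Cars2, Iars2 and Mars2 share 51.9%, 47.8% and 33.6% of their 50-base stretches with other genes, and reads from these stretches cannot be told apart.

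Lars2 dominated the summed counts of the mitochondrial set, and where in the gene its reads lay was not examined. It made up 51.8% to 67.5% of the set's summed normalized counts in CON and 42.2% to 54.9% in PEA. The sum was 14415 to 20908 in CON and 12136 to 15359 in PEA. Without Lars2 it was 6771 to 6947 in CON and 6471 to 7092 in PEA, ranges that overlap. The summed cytosolic set ran from 62202 to 69503 in CON and from 66237 to 75067 in PEA. CON replicate 2 was the CON library that reached into the PEA range.

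Expressed per length of the canonical transcript, cytosolic synthetases were the more abundant set. In CON, Nars1 (2320 normalized counts per kb, SD 23.9) and Gars1 (2238, SD 234) were highest and did not differ beyond their spread. Kars1, Farsa, Rars1 and Sars1 followed between 1573 and 1745, with SDs from 99.0 to 128. Cars1 was the lowest cytosolic gene at 172 per kb (SD 23.8), and reached 214 in PEA. Of the mitochondrial genes, Lars2 was highest, at 2403 per kb (SD 642) in CON and 1757 in PEA. Iars2 (361), Tars2 (319), Rars2 (223), Fars2 (179) and Hars2 (177) came next in CON, below every cytosolic gene except Cars1. Fars2 (SD 15.1) and Hars2 (SD 11.4) did not differ from Cars1 beyond their spread. The rest fell to 17.3 for Mars2, whose annotated transcript is 11294 bases long.

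**Figure D4:**
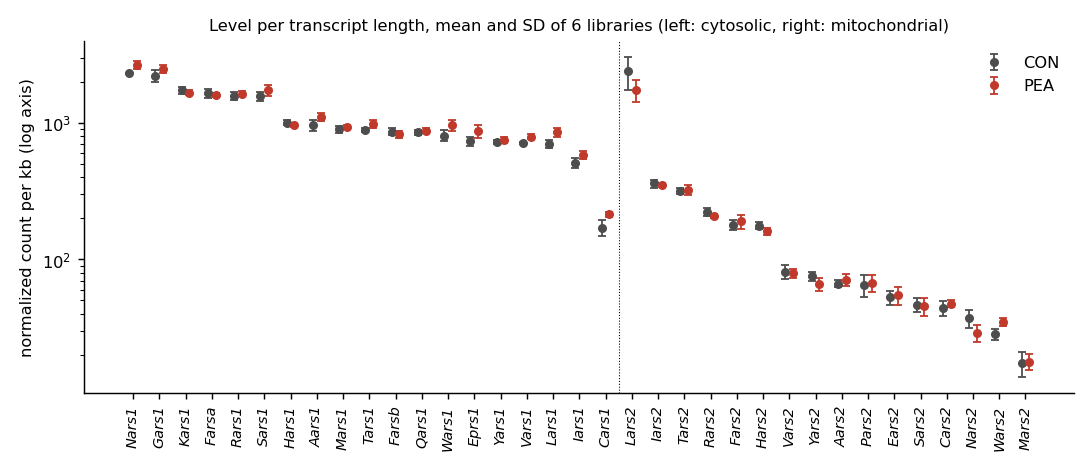
Normalized count per kb of canonical transcript (log axis) of each synthetase in CON and PEA, as the mean and SD of 6 libraries, with cytosolic genes left of the dotted line and mitochondrial genes right of it. Apart from Lars2, every mitochondrial gene lies at 361 per kb or less in CON.

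For 13 amino acids both a cytosolic and a mitochondrial gene are in the set, and their ratio was taken within each library. The leucine pair changed most. The log2 ratio of Lars1 to Lars2 was -2.34 to -1.39 in CON and -1.31 to -0.55 in PEA, without overlap, a difference of 0.73 between the group means. The asparagine pair was second, with Nars1 over Nars2 at 5.76 to 6.46 in CON and 6.15 to 6.87 in PEA, a difference of 0.57 with overlap. Differences of the other 11 pairs lay between -0.05 for tryptophan and 0.25 for tyrosine, all with overlap.

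Levels also varied between libraries within each group. The median over the 19 cytosolic genes of the log2 level, each taken against its own CON mean, was 0.10 in CON replicate 2 and between -0.06 and 0.02 in the other 5 CON libraries. In PEA it was 0.22 and 0.23 in replicates 2 and 4, 0.16 and 0.15 in replicates 5 and 6, and 0.06 and 0.03 in replicates 1 and 3. CON replicate 2 thus exceeded PEA replicates 1 and 3. The percentage of uniquely aligned pairs was likewise higher in PEA replicates 2, 4, 5 and 6 than in PEA replicates 1 and 3 and in every CON library, and was not raised in CON replicate 2 above CON replicate 5. It was the highest CON library for 7 of the 8 called genes, and PEA replicate 3 was the lowest PEA library for 6 of them. For the 16 mitochondrial genes the same measure ran from -0.08 to 0.07 in CON and from -0.13 to 0.07 in PEA.

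**Figure D5:**
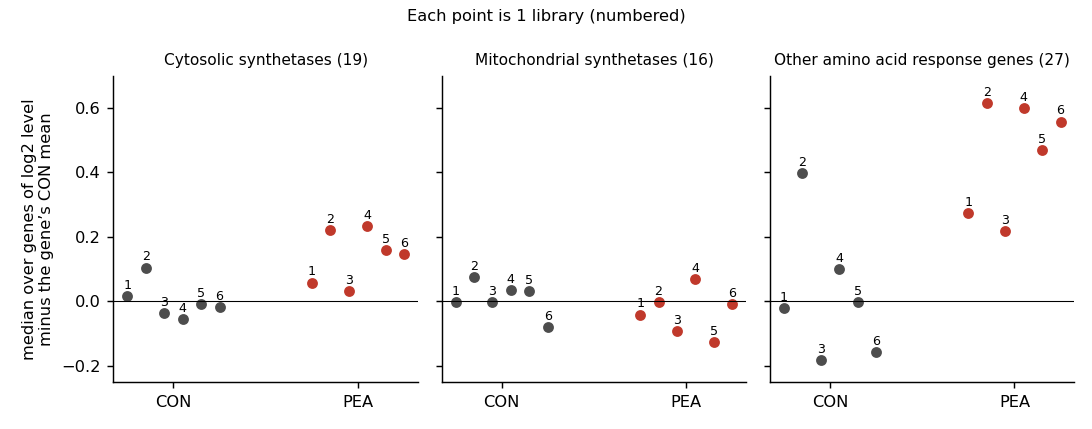
Median over genes of the log2 level minus the gene's CON mean (y axis) in each library, numbered by replicate, for cytosolic synthetases, mitochondrial synthetases and 27 other amino acid response genes. CON replicate 2 is the highest CON library, and PEA replicates 1 and 3 the lowest PEA libraries, in the left and right panels.

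The 27 other genes of the amino acid response, targets of ATF4 and ATF4 itself among them, shared some of this order of libraries. Their median was 0.40 in CON replicate 2 and -0.18 to 0.10 in the other CON libraries, and 0.22 to 0.62 in PEA, lowest in replicates 3 and 1. CON replicate 4, the lowest CON library for the cytosolic genes, was the second highest CON library for these. In all, 19 of 27 were called higher (70.4%, against 6.31% of all genes) and 0 lower. Atf4 itself was not called (0.24, SE 0.08, adjusted p = 0.0585). The 27 genes had a median log2 fold change of 0.49, against 0.15 for the cytosolic synthetases. With the aligned percentage as a covariate the medians were 0.26 and 0.074. The genes with the smallest p were Gdf15 (0.48), a secreted stress cytokine, Aldh18a1 (0.68), of proline synthesis, Chac1 (0.72), which degrades glutathione, Phgdh (0.50), of serine synthesis, and Mthfd2 (0.63), of mitochondrial folate metabolism. With the aligned percentage as a covariate 1 of the 27 was called, higher in PEA, against 1.4% of all genes. In that fit 16 of the 27 had an unadjusted p below 0.05, all higher, against 8.18% of all genes.

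Partners of the synthetases were examined as 36 tested genes on lists of scaffolds, other synthetases, amidation and formylation in mitochondria, selenocysteine, editing, tRNA maturation, delivery to the ribosome, mitochondrial translation and sensing of uncharged tRNA. With edgeR 1 was called higher (2.78%, against 6.31% of all genes) and 1 lower (2.78%, against 4.74%). The gene called higher was Xpot, the exporter that carries tRNA out of the nucleus, at 1766 ± 106 normalized counts in the CON libraries and 2182 ± 171 in the PEA libraries (SD, n = 6 each), no overlap between the groups and a log2 fold change of 0.31 (SE 0.06, adjusted p = 0.00392). The gene called lower was Eef1d, a subunit of the exchange factor of elongation factor 1, with a log2 fold change of -0.16 (SE 0.05, adjusted p = 0.0444). Every PEA library lay below every CON library for Eef1d and, chosen after its value was seen, for Eef1a1, the elongation factor that delivers charged tRNA (-0.11), which DESeq2 called lower and edgeR did not, a pattern found in 1.81% of all genes. With 1 library left out Xpot was called in all 12 fits, and Eef1d in 3, those without CON replicate 1, 2 or 4. Neither was called with the aligned percentage as a covariate.

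The 3 scaffold genes of the multi-synthetase complex, Aimp1 (-0.03), Aimp2 (-0.18) and Eef1e1 (-0.07), were below 0 and not called, with 1 of them, Aimp2, at an unadjusted p below 0.05, as were 13.1% of all genes in the same direction. Tars3, a further threonyl-tRNA synthetase gene outside the list, was not called (0.10). None of 9 mitochondrial translation factors was called (median 0.04), nor any of the 4 genes for glutaminyl-tRNA amidation and formylation in mitochondria (median 0.00), lists too short to set against the 11.0% of all genes called. Eif2ak4, which encodes GCN2, had a log2 fold change of -0.02 and its co-activator Gcn1 one of 0.02.

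Markers of other cell states moved with treatment as well. Myotube markers were present, with summed normalized counts of 78553 to 120480 in CON and 78190 to 93565 in PEA, and 3 of 8 were called lower, against 4.74% of all genes. All 8 markers of cycling cells were called higher, against 6.31% of all genes (median log2 fold change 0.91), their sum being 2719 to 7016 in CON, highest in CON replicate 2, and 7257 to 8664 in PEA. Of 7 myoblast markers 2 were called lower, against 4.74% of all genes, and 0 higher. They summed to 12593 to 14306 in CON and 11108 to 12392 in PEA. Neither of the 2 macrophage markers tested was called. Macrophage markers summed to 74.3 to 151 in CON and 96.4 to 133 in PEA, with Cd68 at 100.0 in CON and 96.4 in PEA and Ptprc at 0.32 and 0.84 on average, and endothelial markers to 2.53 to 13.3 over all libraries. With the aligned percentage as a covariate 5 cycling markers were called higher (median 0.79), against 1.4% of all genes in that fit. In the same fit 1 myotube marker was called lower, against 0.35% of all genes, and 0 myoblast markers were called. In bulk libraries fewer cells of a type and less RNA per cell cannot be told apart, and the part of the cycling cells in the synthetase levels was not tested.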

How the data were processed

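The authors sequenced poly-A RNA with a NEBNext Ultra II kit, aligned reads with STAR 4.4.1d to mm39 and quantified Ensembl genes in Partek. Whether strand was used in counting is not given in the sources used here. The first table they deposited holds estimated counts per gene, not normalized. The other deposited table holds these counts after division by 1 median-ratio factor per library, a linear signal called normalized counts here. Label entries numbered 13, because PEA replicate 2 and its top-up share 1 set of values and were counted as 1 library, which left 12.

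Estimated counts were rounded and tested with edgeR 4.0.16 (quasi-likelihood, TMM, its default expression filter; R 4.3.3), and p-values were adjusted by Benjamini-Hochberg over the 13142 genes left and called below 0.05. Alternatives used DESeq2 1.42.0 and limma 3.58.1, with a pseudocount of 1 for log2 of the normalized counts. Tables and figures used Python 3.11.15. The biological coefficient of variation was 0.106, and printed errors hold no more than counting noise and library-to-library spread. The percentage of uniquely aligned pairs, used as a covariate, came from the study's alignment summary. Symbols, positions and lengths came from GENCODE vM39 on GRCm39. Sequence sharing was counted in stretches of 50 bases.

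The members, lists and tests were chosen with earlier results of these data known. Full values were given to members with an adjusted p below 0.05, at most 14, and log2 fold changes to the others. Of the partner lists, called genes were named, and of the amino acid response genes the 5 with the smallest p. Genes named beyond this rule, which are the 4 singled-out mitochondrial genes, the scaffolds, Tars3, Eif2ak4, Gcn1, Eef1a1, Atf4, Cd68 and Ptprc, were chosen after their values were seen. Some items are not reported here.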

Additional observations from a re-analysis of the deposited data

Results flagged for a closer look

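Single libraries stood apart from the other 5 of their group, by the gap to the nearest library as a share of the group's range, in 8 of the 70 groups of 6 examined (35 genes, CON and PEA). Chance flags about 1 group in 20. High values were those of Gars1 (6556.5, next 5382) and Sars1 (6517, next 5789) in CON replicate 2, and of Farsb in PEA replicate 4 (2034, next 1816). Low values were those of Kars1 (3702, next 4194) and Aars2 (266, next 297) in CON replicate 4, Vars1 in CON replicate 5 (2925, next 3028), Iars2 in PEA replicate 6 (1843, next 1959) and Mars2 in CON replicate 6 (120.0, next 191). All values are normalized counts.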

How the results depend on the processing

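The cytosolic count called higher, 8, was 1 at an adjusted p below 0.01, 0 with the percentage of uniquely aligned pairs as a covariate, 6 in pairs of libraries (0 to 11) and 3 to 11 with single libraries left out. The covariate lowered the cytosolic median log2 fold change from 0.15 to 0.074, and with libraries left out it was 0.13 to 0.18. The mitochondrial count called lower, 0, was 1 with DESeq2, limma-voom, the replicate number as a block and libraries summed in pairs (median of 100 of 225 pairings, 0 to 2), and 0 to 2 with libraries left out. The mitochondrial count called higher was 0 to 1 with libraries left out. The block called Lars2 (adjusted p = 0.00887). Deviations of libraries with the same number were weakly correlated (-0.08 to 0.07), and the block raised all calls from 1452 to 1570. Whether the numbers pair the samples cannot be told from these values. The partner count called higher, 1, was 0 with the covariate. The partner count called lower, 1, was 3 with DESeq2, 2 with median-ratio size factors, 0 without the filter, at 0.01, with the covariate and in pairs (0 to 3), and 0 to 2 with libraries left out. The amino acid response count, 19, was 9 at 0.01, 1 with the covariate, 19.5 in pairs (1 to 24) and 13 to 22 with libraries left out. Calls over all genes were 405 at 0.01, 230 with the covariate, 158 to 2360 in pairs (median 1414) and 778 to 2203 with libraries left out. Uncalled genes near 0 changed sign. Ears2 became -0.0017 with limma-voom and -0.084 with the covariate, which also gave Mars2 -0.20, Tars2 -0.043 and Sars2 0.025, and Vars2 was 0.0014 with limma-voom. With libraries left out Mars2 ran from -0.060 to 0.11, Pars2 from -0.021 to 0.12, Sars2 from -0.099 to 0.024, Tars2 from -0.023 to 0.039 and Vars2 from -0.055 to 0.038. The causes were not tested.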
